A study of Mus musculus with 4 samples.

Results

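The genes described here make up the machinery that builds ribosomes in the nucleolus: 45 genes, chosen by symbol from a list of box C/D and box H/ACA snoRNP proteins, abundant nucleolar proteins, and assembly factors of the small and large ribosomal subunits. All 45 are among the 23420 genes in the deposited files, and all 45 were among the 16078 genes with at least 100 reads over the 12 replicates, which were the genes tested. Cochleae of postnatal day 1 Atoh1-GFP transgenic mice of the CD1 strain, in which an Atoh1 enhancer drives the fluorescent reporter, were cultured overnight in 5% O2 and 5% CO2 with N2 supplement and 100 U/ml penicillin. GFP positive cells (hair cells) and GFP negative cells (non-hair cells) were then sorted from cultures that had been left untreated or given gentamicin, an aminoglycoside antibiotic, at 0.5 mM for 3 h. This gave 4 groups of 3 replicates: control hair cells, gentamicin-treated hair cells, control non-hair cells and gentamicin-treated non-hair cells. All 4 groups carry the transgene, the culture and the penicillin. Non-hair cells are every GFP negative cell of the dissected epithelium and not a single cell type, and cells with weak GFP had been gated out of the hair cells.

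Ribosomes are assembled in the nucleolus. RNA polymerase I makes a long precursor RNA there, small nucleolar ribonucleoproteins (snoRNPs) modify it at chosen bases, and large assemblies of proteins fold it, cut it and join it to ribosomal proteins to give a small and a large subunit. Box C/D snoRNPs methylate the precursor, and box H/ACA snoRNPs turn uridines into pseudouridines. In many cells transcription factors of the MYC family act on the genes of this machinery. Hair cells are the mechanosensory cells of the inner ear and no longer divide, while several cell types around them still do at this age. Aminoglycosides kill hair cells, and in bacteria they act on the ribosome.

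Values below are the deposited normalized read numbers, which are reads scaled in each replicate with 1 added, so that a gene without reads has a value of 1. They are not divided by gene length and are compared only within a gene. Reads on genes numbered 22400671 to 28152261 per replicate, and each member had 280 to 11121 reads in every replicate. Counting error of a replicate was thus 0.967% to 5.799% of the mean, by member and group, and the SD between replicates was 0.604% to 18.7%. In 37 of the 180 combinations of member and group, Brix1 and Utp15 in control hair cells among them, the SD was below the counting error, so that close agreement of 3 replicates is no sign of higher precision there. Fold changes are log2 differences of these values from a limma fit of all 4 groups over the 16078 genes. The criteria of the study were used: a gene was up or down where its unadjusted p was under 0.01 and its fold change over 1.2. Adjusted p-values are Benjamini-Hochberg values over all genes tested. The 9 hair cell markers in the files summed to 8454 to 8789 in control hair cells and 362 to 478 in control non-hair cells. As these are bulk samples, fewer cells of a type and less RNA per cell cannot be told apart.

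The DNA upstream of these genes is shown first for a few of them, because the hexamer CACGTG, the E-box that MYC-MAX and USF proteins bind, was present in a larger share of their promoters than of all promoters. RefSeq windows on GRCm38.p6, from 250 bases before to 50 bases after the start of transcription, were matched for 39 of the 45 members. The E-box, which reads the same on both strands, was found in 9 of the 39 (23.1%), against 7.24% of 27025 promoters and 9.6% of the 11652 tested genes with a window. Those below are written 5′ to 3′ on the strand of the gene with the E-box in capitals. They are Wdr43, Nmd3, Nop2 and Tsr1, which rose in hair cells, Pes1, which did not meet the criteria, and Utp20, which had the largest log2 fold change of the members in non-hair cells.
Wdr43 (chr17:71615965-71616264, forward strand): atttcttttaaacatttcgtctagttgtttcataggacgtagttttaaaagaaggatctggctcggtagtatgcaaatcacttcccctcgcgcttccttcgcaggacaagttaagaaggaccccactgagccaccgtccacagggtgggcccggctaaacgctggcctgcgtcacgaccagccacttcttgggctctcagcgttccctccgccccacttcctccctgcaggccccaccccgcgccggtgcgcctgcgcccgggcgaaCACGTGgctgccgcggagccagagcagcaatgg
Nmd3 (chr3:69721805-69722104, forward strand): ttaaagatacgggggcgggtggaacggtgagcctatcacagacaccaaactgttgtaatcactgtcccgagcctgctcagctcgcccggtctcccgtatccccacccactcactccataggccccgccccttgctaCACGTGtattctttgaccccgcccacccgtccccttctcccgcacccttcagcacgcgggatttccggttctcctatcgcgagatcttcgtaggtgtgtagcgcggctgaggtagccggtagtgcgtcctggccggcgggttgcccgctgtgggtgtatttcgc
Nop2 (chr6:125131633-125131932, forward strand): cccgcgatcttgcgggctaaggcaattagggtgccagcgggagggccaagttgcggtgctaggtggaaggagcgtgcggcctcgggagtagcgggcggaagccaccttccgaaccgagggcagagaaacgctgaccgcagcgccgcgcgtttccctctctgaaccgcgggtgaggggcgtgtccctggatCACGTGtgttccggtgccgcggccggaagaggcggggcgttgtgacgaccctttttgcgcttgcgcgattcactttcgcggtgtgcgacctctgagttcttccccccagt
Tsr1 (chr11:74897830-74898129, forward strand): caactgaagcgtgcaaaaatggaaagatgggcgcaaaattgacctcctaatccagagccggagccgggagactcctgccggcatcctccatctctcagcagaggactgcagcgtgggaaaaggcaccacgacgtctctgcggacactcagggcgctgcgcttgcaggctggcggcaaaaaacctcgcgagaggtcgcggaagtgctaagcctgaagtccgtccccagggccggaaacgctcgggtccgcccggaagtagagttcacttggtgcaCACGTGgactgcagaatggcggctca
Pes1 (chr11:3963725-3964024, forward strand): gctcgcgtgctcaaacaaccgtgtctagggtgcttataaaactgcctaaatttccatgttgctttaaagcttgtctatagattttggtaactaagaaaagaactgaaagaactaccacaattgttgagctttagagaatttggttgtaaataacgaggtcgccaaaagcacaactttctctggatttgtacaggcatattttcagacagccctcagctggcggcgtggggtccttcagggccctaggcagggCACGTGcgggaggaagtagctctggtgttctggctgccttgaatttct
Utp20 (chr10:88826765-88827064, reverse strand): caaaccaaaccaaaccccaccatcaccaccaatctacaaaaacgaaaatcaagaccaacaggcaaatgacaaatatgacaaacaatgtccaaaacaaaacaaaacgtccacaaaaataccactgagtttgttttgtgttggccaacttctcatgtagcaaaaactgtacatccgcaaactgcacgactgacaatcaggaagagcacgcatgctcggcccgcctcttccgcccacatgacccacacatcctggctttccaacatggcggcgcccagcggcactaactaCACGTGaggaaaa
The window of Gnl3, which had the largest log2 fold change of the members in hair cells, holds no CACGTG and is shown for contrast.
Gnl3 (chr14:31019082-31019381, reverse strand): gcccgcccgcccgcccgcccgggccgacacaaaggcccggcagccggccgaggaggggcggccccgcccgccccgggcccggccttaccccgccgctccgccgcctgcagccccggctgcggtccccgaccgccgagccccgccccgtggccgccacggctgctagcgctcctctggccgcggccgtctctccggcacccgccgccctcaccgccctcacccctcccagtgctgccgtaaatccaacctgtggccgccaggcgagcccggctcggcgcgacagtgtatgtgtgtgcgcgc

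In hair cells, gentamicin was followed by higher levels of most of these genes within 3 h. Of the 45 members, 33 were up, 0 were down and 12 did not meet the criteria in the limma fit, where 12.7% of all genes tested were up and 14.8% were down. The median log2 fold change of the members was 0.42, and that of all genes tested was -0.09. Of the members with a log2 fold change below 0, Nop10 and Npm1, 0 had an unadjusted p under 0.05. In 39 members all 3 treated replicates lay above all 3 controls, as in 21.7% of all genes. The range ran from -0.062 (Nop10) to 1.09 (Gnl3), and 33 had an adjusted p under 0.05 (14.8% of all genes did so upwards). In non-hair cells 22 members were up and 0 were down, where 3.18% of all genes tested were up and 2.26% were down, and the median log2 fold change was 0.28, against -0.01 for all genes. In 30 members all treated non-hair cell replicates lay above all controls, as in 10.1% of all genes. Of the members below 0 in non-hair cells, 0 had an unadjusted p under 0.05. The non-hair cell count was less settled than that in hair cells. It was 13 without control replicate 2 and 14 without gentamicin replicate 2 of the non-hair cells, and 5 members had an adjusted p under 0.05 (0.236% of all genes).

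**Figure D1:**
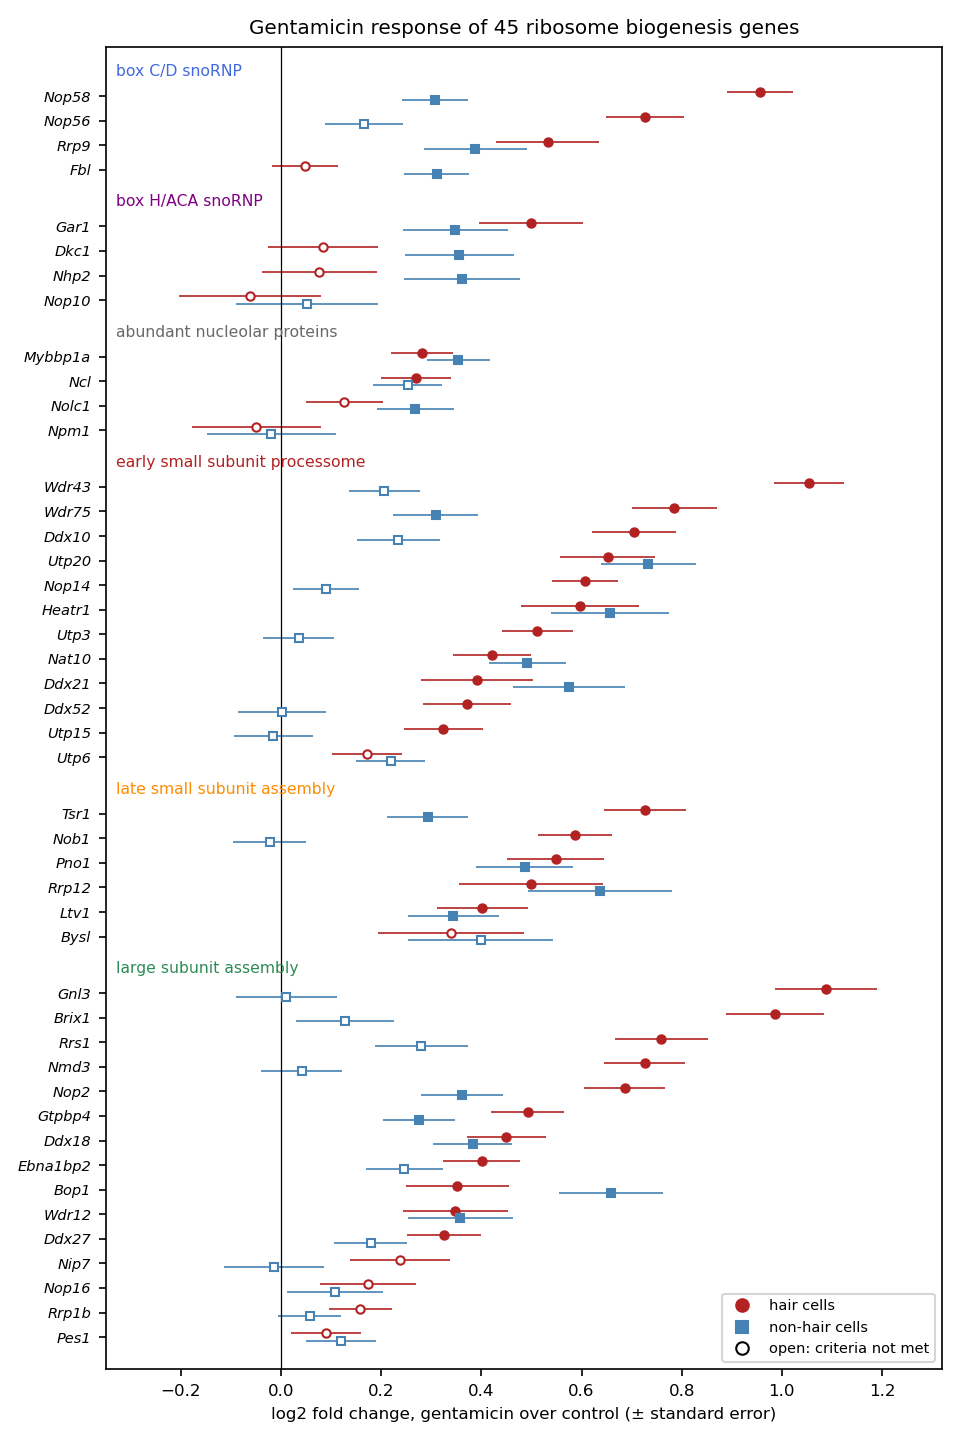
Log2 fold change with gentamicin (horizontal axis) of the 45 members, grouped by role and ordered by the value in hair cells. Circles are hair cells, squares are non-hair cells, and filled symbols met the criteria. Bars are the standard error of the limma fit of all 4 groups (3 replicates a group), which is the same in both populations. Hair cells reach 1.09 at Gnl3 and lie near 0 for Fbl, Npm1 and most box H/ACA proteins.

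Of the 4 box C/D proteins 3 were up in hair cells and 3 in non-hair cells, but not the same 3. In hair cells Nop58, Nop56 and Rrp9 rose, while Fbl, the methyltransferase of the same particle, did not meet the criteria. In non-hair cells Nop58, Rrp9 and Fbl rose, and Nop56 did not meet them. Nop58 (GRCm38, chromosome 1, 59684971 to 59719044, forward strand) encodes one of the paired scaffold proteins of the particle. Its normalized read number was 43.6, 46.1 and 45.97 in control and 85.9, 90.1 and 87.3 in treated hair cells. Every treated replicate was well above every control, and the spread within either group was narrow. For Nop58 the log2 fold change was 0.96 (standard error 0.065, adjusted p = 1.24e-05), a 1.94-fold difference. In non-hair cells Nop58 had 48.4, 47.1 and 47.2 without and 57.7, 64.03 and 55.1 with gentamicin. These groups did not overlap either, but the step was smaller. For Nop58 the log2 fold change there was 0.31 (adjusted p = 0.0676), and the response was larger in hair cells by 0.65 (limma interaction, adjusted p = 0.00293). Without gentamicin replicate 2 of the non-hair cells Nop58 fell just short of a fold change of 1.2 there (log2 fold change 0.25).

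Nop56 encodes the partner scaffold protein of Nop58. It had 84.8, 84.8 and 82.5 in control and 143, 151 and 125 in treated hair cells. The treated replicates varied more than the controls, and the lowest of them was still far above the highest control. For Nop56 the log2 fold change was 0.73 (standard error 0.078, adjusted p = 1.11e-04). In non-hair cells it was 0.17 (adjusted p = 0.305), which did not meet the criteria. Rrp9, a protein of the U3 particle that guides early cleavage of the precursor, had 15.2, 13.8 and 15.7 in control and 22.1, 19.5 and 23.2 in treated hair cells. All treated replicates were higher. Its log2 fold change was 0.53 in hair cells (adjusted p = 0.00280). In non-hair cells Rrp9 had 17.5, 17.99 and 16.9 without and 21.2, 25.2 and 22.3 with gentamicin. The groups did not overlap. For Rrp9 the log2 fold change in non-hair cells was 0.39 (unadjusted p = 0.00302, adjusted p = 0.110), and it missed the criteria without control replicate 3 (unadjusted p = 0.0119) or gentamicin replicate 2 (unadjusted p = 0.0146) of these cells.

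Fbl (GRCm38, chromosome 7, 28169710 to 28179269, forward strand), fibrillarin, had 59.1, 57.8 and 57.03 in control and 60.2, 59.2 and 60.3 in treated hair cells. The groups touch without overlapping, since the lowest treated value was just above the highest control. For Fbl the log2 fold change was 0.048 (standard error 0.065, adjusted p = 0.613). In non-hair cells Fbl had 61.96, 53.8 and 55.3 without and 71.7, 72.9 and 67.2 with gentamicin. Here all treated replicates lay clearly above the controls. For Fbl the log2 fold change was 0.31 (unadjusted p = 5.70e-04, adjusted p = 0.0665), which met the criteria. The difference between the responses was -0.26 on the log2 scale and did not pass an adjusted p of 0.05 with all replicates (adjusted p = 0.0821). It did without control replicate 1 of the non-hair cells, at -0.32 (adjusted p = 0.0343).

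Among the 4 box H/ACA proteins, 1 of 4 was up in hair cells and 3 of 4 in non-hair cells, with median log2 fold changes of 0.08 and 0.35. Gar1, a small protein that helps the enzyme to release its product, had 21.7, 19.1 and 21.1 in control and 26.7, 32.4 and 28.6 in treated hair cells. All treated values were higher than all controls. For Gar1 the log2 fold change was 0.50 (standard error 0.10, adjusted p = 0.00422). The other 3 proteins of this particle did not meet the criteria in hair cells. Dkc1, the pseudouridine synthase itself, had a log2 fold change of 0.084, Nhp2 of 0.076 and Nop10 of -0.062. In non-hair cells the log2 fold change was 0.36 for Dkc1, 0.36 for Nhp2 and 0.35 for Gar1, and these 3 met the criteria at unadjusted p-values of 0.00742, 0.00930 and 0.00631. None of the 3 had an adjusted p under 0.05. Without control replicate 2 of the non-hair cells, the unadjusted p was 0.0346 for Dkc1, 0.0462 for Nhp2 and 0.0263 for Gar1, and without gentamicin replicate 2 it was 0.0350, 0.0314 and 0.0256. Nop10 had 0.052 in non-hair cells. No interaction of the 4 proteins passed an adjusted p of 0.05, so a difference between the populations was not shown for this particle.

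Of the 4 abundant nucleolar proteins 2 were up in hair cells and 2 in non-hair cells, with log2 fold changes of -0.049 to 0.28 in hair cells. Mybbp1a, a nucleolar MYB-binding protein, had 147, 139.6 and 142 in control and 169, 176 and 175 in treated hair cells. The groups stood apart with little spread in each. For Mybbp1a the log2 fold change was 0.28 in hair cells (adjusted p = 0.00602) and 0.35 in non-hair cells (adjusted p = 0.0455). Ncl, nucleolin (GRCm38, chromosome 1, 86344719 to 86359400, reverse strand), had 283, 267 and 271 in control and 320.4, 349.5 and 321 in treated hair cells. All treated replicates were higher. Its log2 fold change was 0.27 in hair cells (standard error 0.070, adjusted p = 0.0128). It missed the criteria without control replicate 2 or 3 or gentamicin replicate 2 of the hair cells, with log2 fold changes of 0.25, 0.26 and 0.23. In non-hair cells Ncl had 357, 312 and 326 without and 392, 399.6 and 392 with gentamicin. These groups did not overlap, and the log2 fold change of 0.25 was near that of hair cells but just missed a fold change of 1.2 (unadjusted p = 0.00381). Nolc1, a chaperone of snoRNPs, had a log2 fold change of 0.13 in hair cells, where it did not meet the criteria, and 0.27 in non-hair cells, where it did (unadjusted p = 0.00506) unless control replicate 2 or 3 or gentamicin replicate 2 or 3 was left out (unadjusted p = 0.0132 to 0.0243).

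Npm1, nucleophosmin (GRCm38, chromosome 11, 33152287 to 33163206, reverse strand), had 166, 176 and 170.3 in control and 179, 165 and 152 in treated hair cells. The groups overlap. For Npm1 the log2 fold change was -0.049 (standard error 0.13), and its sign changed with the scaling and with the replicates kept. In non-hair cells it had 451, 359 and 318 without and 402, 391 and 314 with gentamicin. These groups overlap too, and the replicates are spread far more widely than in hair cells. For Npm1 the log2 fold change was -0.019 (standard error 0.13).

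**Figure D2:**
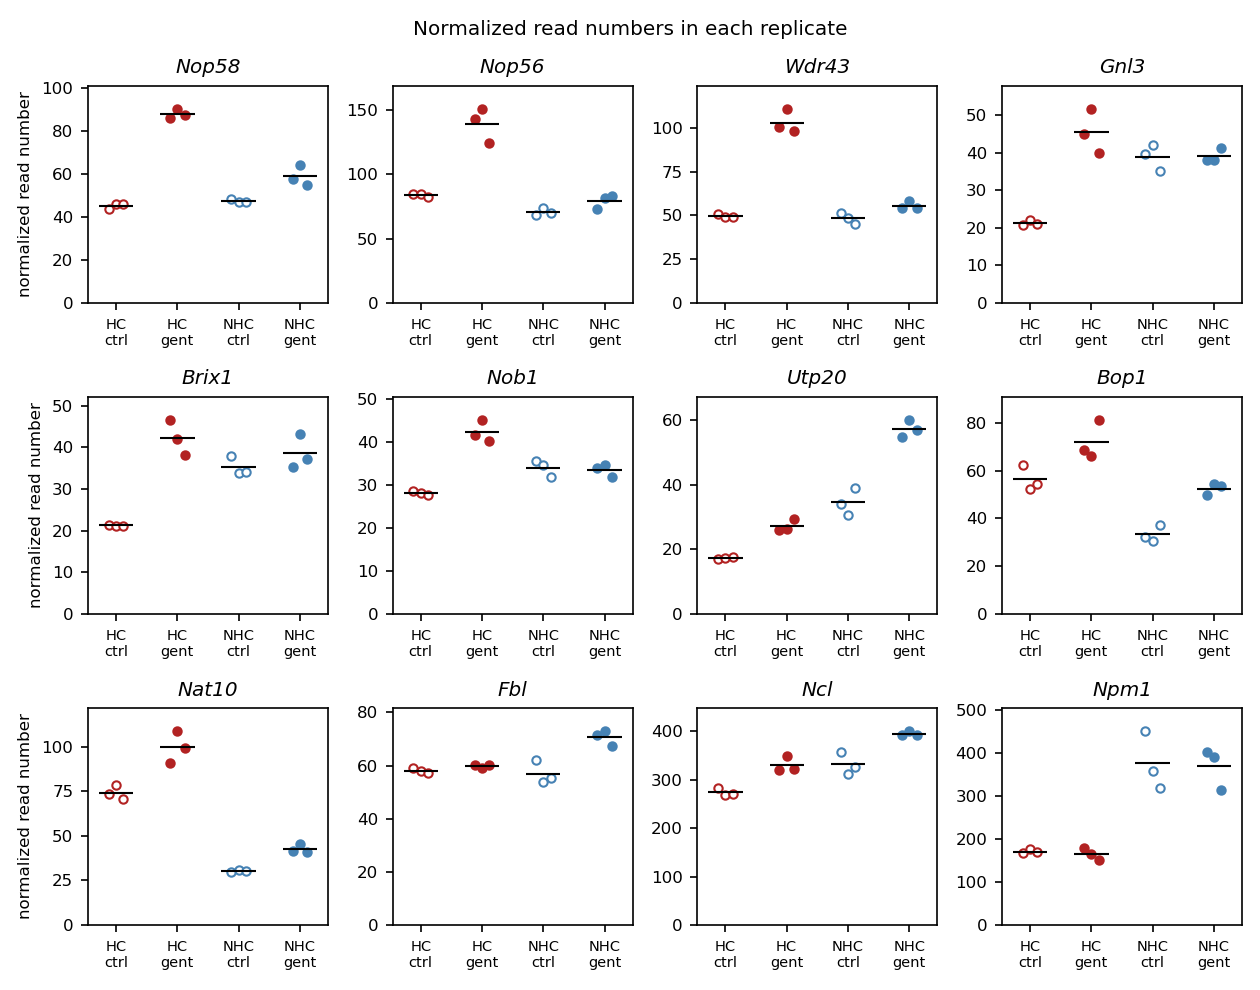
Normalized read number (vertical axis, from 0) of 12 members in each replicate of control (open) and gentamicin-treated (filled) hair cells (HC, red) and non-hair cells (NHC, blue); lines are means over 3 replicates. Gnl3, Brix1 and Nob1 rise in hair cells from values below those of non-hair cells, Utp20, Bop1 and Nat10 rise in both, and Npm1 lies apart by population and not by treatment.

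The early small subunit processome, the particle that forms on the precursor while it is still being made, had the largest share of members up in hair cells among the 6 role groups, 11 of 12, with a median log2 fold change of 0.55. In non-hair cells 5 of 12 were up. Wdr43, a WD-repeat protein of a complex that joins the precursor early (GRCm38, chromosome 17, 71615895 to 71659031, forward strand), had 50.5, 49.02 and 48.9 in control and 100.3, 111 and 97.9 in treated hair cells. All treated values were far above the controls. For Wdr43 the log2 fold change was 1.05 (standard error 0.071, adjusted p = 1.10e-05). In non-hair cells Wdr43 had 51.4, 48.3 and 44.9 without and 54.2, 58.2 and 54.2 with gentamicin. Treated values were higher there as well, but close to the controls. For Wdr43 the log2 fold change was 0.21 (adjusted p = 0.184), and the response was larger in hair cells by 0.85 (adjusted p = 0.00112).

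Wdr75, a protein of the same early complex, had 33.5, 29.7 and 31.3 in control and 55.9, 57.8 and 49.3 in treated hair cells. The treated replicates were all higher. For Wdr75 the log2 fold change was 0.79 in hair cells (adjusted p = 1.11e-04) and 0.31 in non-hair cells (unadjusted p = 0.00373), where it missed the criteria without control replicate 2 (unadjusted p = 0.0178) or gentamicin replicate 1 (0.0112) or 2 (0.0163). Ddx10, a DEAD-box RNA helicase of the processome, had 24.1, 24.1 and 22.4 in control and 39.2, 37.99 and 37.8 in treated hair cells. The treated values form a tight group above the controls. Its log2 fold change was 0.71 in hair cells (adjusted p = 1.80e-04) and 0.23 in non-hair cells (adjusted p = 0.198). Nop14 and Utp3, which join the particle as it matures, had log2 fold changes of 0.61 and 0.51 in hair cells and of 0.090 and 0.035 in non-hair cells. Both met the criteria in hair cells and neither did in non-hair cells. Ddx52, another helicase, and Utp15, a protein of the complex that joins the precursor first, rose by 0.37 and 0.32 in hair cells. In non-hair cells their log2 fold changes were 0.0017 and -0.016. Their interactions did not pass (adjusted p = 0.0726 and 0.0666). Utp6 had 0.17 in hair cells and 0.22 in non-hair cells and met the criteria in neither.

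Other proteins of the processome met the criteria in both populations. Utp20, a very large scaffold protein (GRCm38, chromosome 10, 88746607 to 88826804, reverse strand), had 34.1, 30.5 and 38.99 without and 54.7, 59.9 and 56.99 with gentamicin in non-hair cells. The treated replicates were all far higher. For Utp20 the log2 fold change was 0.73 (standard error 0.095, adjusted p = 0.0301), the largest of the 45 members in these cells. In hair cells Utp20 had 17.1, 17.2 and 17.6 without and 26.1, 26.1 and 29.4 with gentamicin. All treated values were higher, from lower control values than in non-hair cells. For Utp20 the log2 fold change was 0.65 (adjusted p = 5.63e-04), and the difference between the responses was -0.081 (standard error 0.13, adjusted p = 0.725).

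Heatr1, another large scaffold that also supports RNA polymerase I, had 27.5, 26.7 and 34.2 without and 42.5, 51.7 and 45.1 with gentamicin in non-hair cells. Control replicate 3 was the highest control and lay below every treated value. For Heatr1 the log2 fold change was 0.66 in non-hair cells (adjusted p = 0.0466) and 0.60 in hair cells (adjusted p = 0.00314). Nat10, the acetyltransferase that marks cytidines of the small subunit RNA, had 29.5, 30.99 and 30.5 without and 41.6, 45.7 and 40.9 with gentamicin in non-hair cells. The controls were almost alike, and all treated values were higher. For Nat10 the log2 fold change was 0.49 in non-hair cells (adjusted p = 0.0327) and 0.42 in hair cells (adjusted p = 0.00222). Ddx21, a helicase that links RNA polymerase I with processing, had 55.2, 48.3 and 63.9 without and 73.3, 83.9 and 91.5 with gentamicin in non-hair cells. Both groups were spread widely without overlapping. For Ddx21 the log2 fold change was 0.58 in non-hair cells (unadjusted p = 3.08e-04, adjusted p = 0.0623) and 0.39 in hair cells (adjusted p = 0.0208). In hair cells Ddx21 missed the criteria without control replicate 1 (unadjusted p = 0.0109) or 2 (0.0217) or gentamicin replicate 2 (0.0210) or 3 (0.0194).

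Of the 6 late small subunit factors, which take the particle from the nucleolus to the cytoplasm, 5 were up in hair cells and 4 in non-hair cells. Tsr1, which holds back the joining of the subunits, had 56.5, 53.7 and 55.8 in control and 84.7, 99.9 and 90.6 in treated hair cells. The treated group was spread more but lay wholly above the controls. For Tsr1 the log2 fold change was 0.73 (adjusted p = 1.39e-04) in hair cells and 0.29 in non-hair cells (unadjusted p = 0.00407), where it missed the criteria without control replicate 2 (unadjusted p = 0.0103) or 3 (0.0203) or gentamicin replicate 3 (0.0198). The gene shares 32.3% of its exon bases with its neighbour Srr and its values were whole reads in 1 of 12 replicates, and reads in the shared bases cannot be told apart. Nob1, the nuclease that makes the final cut of the small subunit RNA, had 28.6, 28.2 and 27.7 in control and 41.6, 45.1 and 40.4 in treated hair cells. The groups were far apart. For Nob1 the log2 fold change was 0.59 (adjusted p = 2.40e-04). In non-hair cells Nob1 had 35.6, 34.8 and 31.97 without and 33.9, 34.8 and 32.03 with gentamicin. These groups overlap, the log2 fold change was -0.023, and the difference between the responses was 0.61 (adjusted p = 0.00531).

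Pno1, the partner of Nob1, had 21.9, 22.9 and 25.1 in control and 34.8, 32.5 and 34.7 in treated hair cells. The treated values were all higher. In non-hair cells it had 15.8, 14.4 and 18.1 without and 22.3, 21.8 and 23.2 with gentamicin, and here too the groups did not overlap. For Pno1 the log2 fold change was 0.55 in hair cells (adjusted p = 0.00178) and 0.49 in non-hair cells (unadjusted p = 3.84e-04, adjusted p = 0.0623). Rrp12, an export factor, had 15.1, 16.4 and 20.5 without and 22.6, 26.9 and 31.5 with gentamicin in non-hair cells. The groups came close but did not overlap, and each was widely spread. For Rrp12 the log2 fold change was 0.64 in non-hair cells (adjusted p = 0.0806) and 0.50 in hair cells (adjusted p = 0.0216). In hair cells Rrp12 missed the criteria without control replicate 2 (unadjusted p = 0.0194) or 3 (0.0162) or gentamicin replicate 2 (0.0124) or 3 (0.0271). Ltv1, which guides placement of a ribosomal protein, was up in both populations, by 0.40 in hair cells and 0.34 in non-hair cells. In non-hair cells Ltv1 missed the criteria without control replicate 2 (unadjusted p = 0.0147) or gentamicin replicate 3 (0.0110). Bysl, bystin, had log2 fold changes of 0.34 and 0.40 and met the criteria in neither, with standard errors among the largest of the members (0.14). Its values were whole reads in 0 of 12 replicates, and it shares 9.37% of its exon bases with Ccnd3.

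Of the 15 large subunit assembly factors, 11 were up in hair cells and 5 in non-hair cells, with median log2 fold changes of 0.40 and 0.18. Gnl3 had the largest rise of the 45 members in hair cells, and Brix1 had the third largest, after Wdr43. Gnl3, nucleostemin, a nucleolar GTPase (GRCm38, chromosome 14, 31012433 to 31019152, reverse strand), had 20.7, 22.2 and 20.95 in control and 44.9, 51.6 and 39.8 in treated hair cells. The treated values were spread, and the lowest of them was far above the highest control. For Gnl3 the log2 fold change was 1.09 (standard error 0.10, adjusted p = 5.58e-05). In non-hair cells Gnl3 had 39.6, 42.1 and 35.1 without and 38.1, 38.1 and 41.2 with gentamicin. These groups overlap. Their highest value, 42.1, was above the lowest treated hair cell value of 39.8 and below the other treated hair cell values. For Gnl3 the log2 fold change was 0.011, and the difference between the responses was 1.08 (standard error 0.14, adjusted p = 0.00204), the largest among the members.

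Brix1, an assembly factor of the large subunit (GRCm38, chromosome 15, 10474779 to 10485947, reverse strand), had 21.4, 21.2 and 21.1 in control and 46.5, 41.9 and 38.2 in treated hair cells. The controls were almost the same and all treated values were far above them. For Brix1 the log2 fold change was 0.99 (standard error 0.10, adjusted p = 7.10e-05). In non-hair cells Brix1 had 37.96, 33.8 and 33.97 without and 35.2, 43.2 and 37.3 with gentamicin, and the groups overlap. For Brix1 the log2 fold change there was 0.13, and the difference between the responses was 0.86 (adjusted p = 0.00454). Rrs1, another assembly factor of the large subunit, had 22.8, 21.3 and 22.01 in control and 35.6, 39.2 and 37.2 in treated hair cells. All treated values were higher. For Rrs1 the log2 fold change was 0.76 in hair cells (adjusted p = 2.05e-04) and 0.28 in non-hair cells (adjusted p = 0.172).

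Bop1, Pes1 and Wdr12 form 1 complex that is needed for the large subunit RNA. Bop1 (GRCm38, chromosome 15, 76452989 to 76477277, reverse strand) had 32.3, 30.4 and 37.3 without and 49.8, 54.3 and 53.4 with gentamicin in non-hair cells. All treated values were much higher. For Bop1 the log2 fold change was 0.66 in non-hair cells (standard error 0.10, adjusted p = 0.0327). In hair cells it had 62.3, 52.4 and 54.2 without and 68.6, 66.1 and 81.02 with gentamicin. The groups did not overlap, but the highest control was near the lowest treated value. For Bop1 the log2 fold change was 0.35 (adjusted p = 0.0232), and the difference between the responses was -0.31 (adjusted p = 0.183). Wdr12 had 0.35 in hair cells and 0.36 in non-hair cells and was up in both. In hair cells Bop1 missed the criteria without control replicate 2 (unadjusted p = 0.0269) or 3 (0.0219) or gentamicin replicate 3 (0.0293). Wdr12 missed them without any 1 of the 6 hair cell replicates (unadjusted p = 0.0115 to 0.0233). It met them when the 2 hair cell groups were fitted alone, and those groups stood apart (64.2 to 65.7 and 79.4 to 84.8). The fit pools the spread of all 4 groups, and Wdr12 varied most in treated non-hair cells (SD 18.4% of the mean). In non-hair cells Wdr12 missed them without control replicate 2 (unadjusted p = 0.0184) or 3 (0.02002) or gentamicin replicate 2 (0.0131). Pes1 had 0.089 in hair cells and 0.12 in non-hair cells and met them in neither.

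The remaining large subunit factors were graded. Nmd3, the adaptor that carries the large subunit out of the nucleus, rose by 0.73 in hair cells and had 0.041 in non-hair cells, and the interaction was 0.69 (adjusted p = 0.00501). Nop2, a methyltransferase of the large subunit RNA, rose by 0.69 in hair cells and by 0.36 in non-hair cells. The GTPase Gtpbp4 and the helicase Ddx18 were up in both populations, with 0.49 and 0.45 in hair cells and 0.28 and 0.38 in non-hair cells. There Gtpbp4 missed the criteria without control replicate 2 (unadjusted p = 0.0137) or gentamicin replicate 3 (0.0101), and Ddx18 met them in each case. Ebna1bp2 and the helicase Ddx27 were up in hair cells only by the criteria, with 0.40 and 0.33 against 0.25 and 0.18, and their interactions did not pass (adjusted p = 0.364 and 0.368). Nip7, Nop16 and Rrp1b met the criteria in neither population, with 0.24, 0.17 and 0.16 in hair cells and -0.015, 0.11 and 0.057 in non-hair cells.

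Whether the 2 populations responded to a different degree was tested for every gene with the interaction term of the same limma fit. This passed an adjusted p of 0.05 in 13 members, all with the larger response in hair cells, where 6.85% of all genes tested had a larger response in hair cells and 6.57% a smaller one. These were Gnl3, Brix1, Wdr43, Nmd3, Nop58, Nob1, Nop56, Nop14, Rrs1, Wdr75, Utp3, Ddx10 and Tsr1. By role they were 2 of 4 box C/D proteins, 0 of 4 box H/ACA proteins, 0 of 4 abundant nucleolar proteins, 5 of 12 early and 2 of 6 late small subunit factors, and 4 of 15 large subunit factors. In 28 of 45 members the log2 fold change was larger in hair cells, as in 6876 of the 16078 genes tested. By the criteria, 18 members were up in both populations, where 0.97% of all genes were, 15 in hair cells alone, 4 in non-hair cells alone (Fbl, Dkc1, Nhp2 and Nolc1) and 8 in neither. Of all genes tested, 12.7% were up in hair cells and 3.18% in non-hair cells, with those up in both included. The group means compared in the 2 populations share no libraries. The fit takes 1 spread per gene from all 12 replicates, however, so the standard errors are the same in both populations. Same-numbered control hair cell and non-hair cell replicates also deviated together (correlations of 0.22, 0.32 and 0.20 across genes). The comparisons are thus not fully independent. No interaction of the 4 passed an adjusted p of 0.05, and neither did that of Utp20, Heatr1, Nat10, Ddx21, Rrp12 or Bop1, which had the 6 largest log2 fold changes in non-hair cells.

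**Figure D3:**
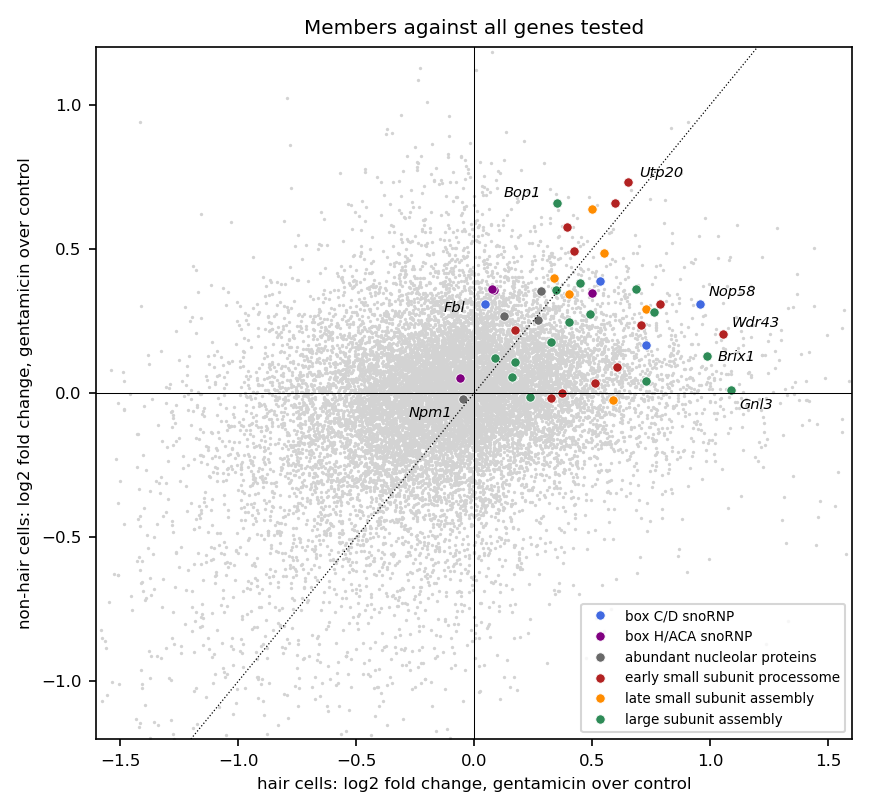
Log2 fold change with gentamicin in hair cells (horizontal axis) and in non-hair cells (vertical axis) for all genes tested (grey) and the 45 members (coloured by role); the dotted line marks equal change, and 108 genes lie outside the axes. Members spread to the right of 0, from those near the horizontal axis such as Gnl3 to those near the line of equal change such as Utp20.

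Between the control populations the members did not lie to one side. By the same criteria 11 were higher in hair cells, where 28.1% of all genes tested were, and 11 were lower, where 37.7% were. This split depended on the scaling. TMM scaling, which moved the median log2 difference of all genes from -0.12 to -0.01, gave 18 members higher and 5 lower, where 32.7% of all genes were higher and 33.7% lower. Scaling by total reads gave 11 and 11, where 27.2% and 38.7% were. The number lower was 5 without control replicate 1 of the non-hair cells. With the replicate number as a block, which pairs these groups, 12 were higher and 10 lower, Dkc1 losing the criteria and Bysl meeting them. Members higher in hair cells included Wdr12, with 65.7, 64.2 and 64.2 in control hair cells and 19.1, 17.6 and 17.3 in control non-hair cells. The hair cell replicates were all far above the non-hair cell ones. The log2 difference was 1.85 (standard error 0.10, adjusted p = 2.58e-08). Nat10 was higher in hair cells by 1.29, Rrp12 by 1.13, Ddx21 by 0.91, Bop1 by 0.76 and Gar1 by 0.68 on the log2 scale.

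Npm1 was the lowest in hair cells, and its log2 difference was -1.12 (standard error 0.13, adjusted p = 8.91e-06). Utp20 had -0.99, Gnl3 -0.87, Utp15 -0.74 and Brix1 -0.73. These 5 genes remained lower in hair cells under TMM scaling. For Wdr43, Nop58, Rrs1, Utp3, Nop14 and Wdr75 the log2 difference between the controls did not meet the criteria (0.040, -0.073, -0.049, 0.10, 0.086 and 0.056). Under TMM scaling these differences were 0.16, 0.048, 0.068, 0.22, 0.21 and 0.18, and they did not meet the criteria there either. After gentamicin 23 members were higher in hair cells and 6 were lower, where 30.9% and 39.4% of all genes were. The treated populations were compared with the deposited scaling only, and how far this result depends on the scaling was not tested. Gnl3 had a log2 difference of 0.21 and Brix1 of 0.13 between the treated populations, and neither met the criteria there.

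**Figure D4:**
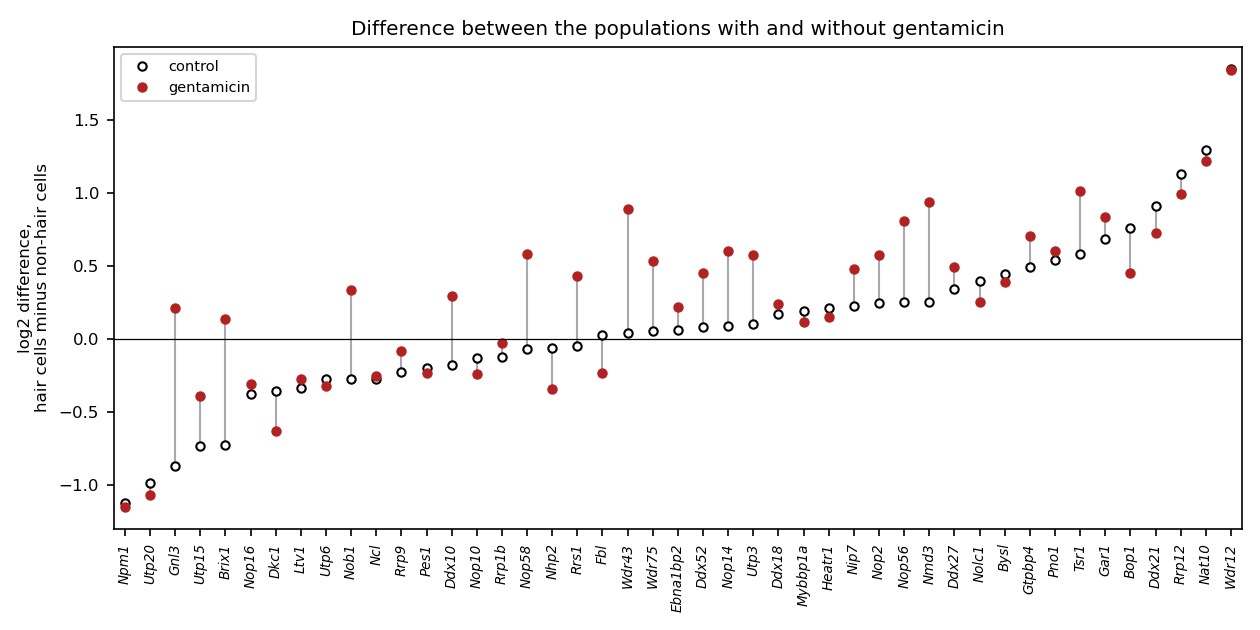
Log2 difference between hair cells and non-hair cells (vertical axis) for the 45 members, ordered by the value without gentamicin (open circles); filled circles are the values with gentamicin. Gnl3 and Brix1 move from -0.87 and -0.73 to 0.21 and 0.13, while Npm1, Utp20, Nat10 and Wdr12 stay almost in place.

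Other genes of the pathway were taken from lists that hold none of the 45 members. Of all genes tested, 12.7% were up and 14.8% down in hair cells, and 3.18% were up and 2.26% down in non-hair cells. In hair cells 24 of 38 other small subunit factors were up and 1 was down, and in non-hair cells 10 were up and 0 were down. The largest rises in hair cells were those of Aatf (1.05), Utp18 (0.82) and Nol10 (0.80), all processome proteins, and Imp3, a U3 particle protein, was down (-0.38). Among 42 other large subunit factors 24 were up and 1 was down in hair cells, and 9 were up and 1 was down in non-hair cells. Spata5, an ATPase that recycles assembly factors, rose by 1.44, the helicase Ddx31 by 1.35 and Ppan by 1.04. Gltscr2, a nucleolar protein, was down in both populations (-0.33 in hair cells and -0.30 in non-hair cells). The medians of these 2 lists in hair cells were 0.38 and 0.40.

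RNA polymerase I and its factors, which make the precursor, had 11 of 15 genes up and 0 down in hair cells and 3 up in non-hair cells. Taf1d, a subunit of the promoter selectivity factor, rose by 1.02 in hair cells and had -0.17 in non-hair cells, and the interaction was 1.19 (adjusted p = 0.00348). Twistnb rose by 0.84 and Polr1b by 0.84 in hair cells. Both are polymerase subunits. Of 10 genes for snoRNP assembly 4 were up, led by Nufip1 (1.05), Znhit6 (0.73) and Shq1 (0.49), and 0 were down. Of the 14 genes of the exosome, which trims the precursor, 8 were up, led by Dis3 (1.02), Exosc9 (0.57) and Exosc10 (0.46). Of 10 genes of RNase MRP, which cuts it, 4 were up, led by Pop1 (1.66), Rpp38 (0.98) and Rpp30 (0.44). In non-hair cells 1 of the 10 snoRNP assembly genes, 3 of the 14 exosome genes and 1 of the 10 RNase MRP genes were up. Shares of all genes tested that were up were 12.7% in hair cells and 3.18% in non-hair cells.

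**Figure D5:**
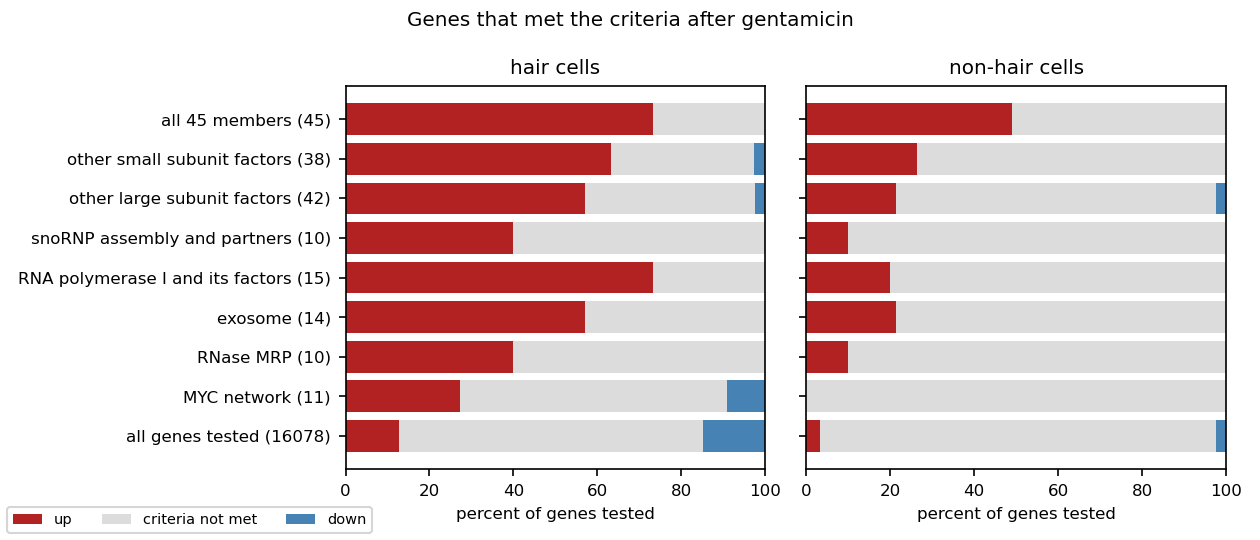
Percent of the genes tested in each list (number in brackets) that were up, down or did not meet the criteria with gentamicin, in hair cells and non-hair cells. The bars for the members and for RNA polymerase I are the longest in hair cells (33 of 45 and 11 of 15), and that for all genes tested shows the background of 12.7% up.

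In the MYC network 3 of 11 genes were up and 1 was down in hair cells, where 12.7% of all genes tested were up and 14.8% down. Counts in so short a list are too small to set against these shares. Myc itself met the criteria in neither population. In hair cells Myc had 4.91 ± 1.03 without and 4.75 ± 0.615 with gentamicin (mean ± SD, n = 3), and in non-hair cells it had 34.01 ± 6.91 and 26.1 ± 3.20. The hair cell groups overlap at a very low level, and the non-hair cell groups overlap as well. For Myc the log2 fold change was -0.035 in hair cells and -0.37 in non-hair cells, and neither met the criteria. Mycn fell in hair cells, from 45.6 ± 4.04 to 29.1 ± 2.54 (log2 fold change -0.65, adjusted p = 0.00130), with all treated replicates below all controls. Mycl1 had 306 ± 27.6 in control and 226 ± 22.7 in treated hair cells (log2 fold change -0.44, unadjusted p = 0.0561), which did not meet the criteria. Max, the shared partner of the MYC proteins, rose by 0.41, Mlx by 0.39 and Mxd1, which competes with MYC for Max, by 0.63. Mxd4 (-0.32), Mga (-0.17), Mxd3 (-0.15), Mnt (-0.12) and Mxi1 (-0.0011) did not meet the criteria in hair cells. In non-hair cells 0 of the 11 genes met the criteria in the limma fit. An unadjusted p under 0.05 was reached there by Mxd4 and Max, which were higher with gentamicin, and by Mycn, which was lower.

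Among the 39 members with a RefSeq window, the 9 that hold the E-box shown above were Mybbp1a, Utp20, Wdr43, Ltv1, Pno1, Tsr1, Nop2, Pes1 and Nmd3. Its first base lay after the start of transcription in 7 of them and before it in Nop2 (position -60) and Nmd3 (position -114), counted from 1 at the first base of the transcript. Of the 9, 8 were up in hair cells, where 33 of all 45 members and 12.7% of all genes tested were up. The log2 fold changes of the 9 ran from 0.089 (Pes1) to 1.05 (Wdr43) with a median of 0.65. The 30 windows without it belong to genes from -0.062 (Nop10) to 1.09 (Gnl3) with a median of 0.41. In non-hair cells the medians were 0.34 and 0.25. The ranges overlap almost wholly. An ETS-type motif, CCGGAAG on either strand, was found in 13 of the 39 windows (33.3%, against 15.6% of tested genes), and CCAAT on either strand in 16 (41.0%, against 38.1%). The YY1-type motif AAGATGGCG, also searched on both strands, was in 0 windows, against 2.73% of tested genes. None of these motifs is contained in another, and a match describes only the letters of the window.

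Some of these genes carry snoRNA genes in their introns, so that a single transcript gives both a snoRNP or assembly protein and the guide RNAs of the same pathway. In GENCODE M21, 7 members hold 21 snoRNA genes: Nop58 (with Snord11 and Snord70), Nop56 (Snord57 and Snord110), Ncl (Snora75 and Snord82), Wdr43 (Snord53 and Snord92), Tsr1 (Snord91a), Gnl3 (Snord19 and Snord69) and Dkc1. In hair cells 6 of the 7, all but Dkc1, were up with a median log2 fold change of 0.73, and the 38 other members had a median of 0.40. In 252 other tested genes that hold snoRNA genes, 19.8% were up and the median was -0.03. This grouping was chosen after the values were seen and was not tested. The libraries were made from polyadenylated RNA, so the snoRNAs themselves are not measured here.

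Some markers of other cells differed with gentamicin in the hair cell libraries. There 3 of 6 mesenchyme, 3 of 5 glia, 1 of 5 endothelium and 1 of 4 melanocyte markers were down, and 0 were up. Of all genes tested 14.8% were down and 12.7% up in hair cells, and the endothelium and melanocyte counts are too small to set against that share. Of 5 neuron markers 0 met the criteria. The summed level of 10 supporting cell markers was 1847 to 2126 in control and 812 to 1536 in treated hair cells, and 4 of the 10 were down (Hes5, Lfng, Notch1 and Sparcl1). In control non-hair cells this sum was 2199 to 3293. By the criteria Lfng was higher (log2 difference 1.52) and Sparcl1 lower (-1.98) in control hair cells than in control non-hair cells. This list as a whole thus does not set other cells apart from hair cells here. The sum of 6 macrophage markers was 4.61 to 5.30 in control and 14.97 to 21.5 in treated hair cells. This came from Cd68, a lysosomal membrane protein, which rose by 2.52 on the log2 scale (adjusted p = 3.81e-05), while the other 5 (Csf1r, C1qb, C1qa, Aif1 and Ptprc) had log2 fold changes of -0.011 to 0.26 and did not meet the criteria. The sum of 5 markers of dividing cells was 11.6 to 19.9 in control and 6.56 to 14.4 in treated hair cells, and 0 of the 5 met the criteria (unadjusted p of 0.0392 for Cdk1 and above 0.05 for the others). None of these markers was at the level of no reads in all 3 replicates of either group. RNA from other cells, estimated from 136 genes over 16 times higher in non-hair cells, was 2.77%, 5.23% and 2.60% in the control and 1.25%, 1.70% and 1.49% in the treated hair cell replicates. With this share subtracted, 33 members were up and the median log2 fold change was 0.41. Picking the 136 genes for low hair cell levels in these same data kept the estimated control share small in advance. The 10 supporting cell markers all fell short of a 16-fold gap, with Sparcl1 (-1.98) the lowest in control hair cells. The unchanged count of 33 thus cannot show whether RNA of supporting cells played a part, which was not tested. In non-hair cells the markers of dividing cells summed to 246 to 275 without and 225 to 395 with gentamicin, and their part in the rise of the members there was not tested.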

How the data were processed

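Polyadenylated RNA of the 2 sorted populations was sequenced in 4 groups of 3 replicates. Single-end reads were trimmed by the authors and aligned with TopHat2 (mm10, run in PartekFlow), and a score was deposited per gene and replicate. These deposited scores are not divided by gene length, although RPKM is named in the study's methods. With 1 subtracted, 82.9 to 83.9% of the low values (up to 20 reads) were whole multiples of a replicate's smallest step within 0.1 reads, so they were taken as reads scaled by a factor that is not given in the sources used here. As not nearly all values were whole, no count test was run. Values were whole in all 12 replicates for 29 of the 45 members. Which libraries shared a sequencing lane is not given in the sources used here, and a lane effect was not tested.

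Genes with at least 100 reads over the 12 replicates (16078 of 23420) were tested. The log2 of the deposited score, offset of 1 included, which understates fold changes of low genes, was fitted in R 4.3.3 using limma 3.58.1, 4 group means and a trended empirical Bayes variance. Contrasts were gentamicin in each population, their difference, and hair cells against non-hair cells without gentamicin. Criteria were those of the study (unadjusted p under 0.01, fold change above 1.2) and, for the difference between responses, an adjusted p under 0.05. All tests were two-sided. With 3 against 3 replicates a permutation test cannot go below 0.10, so single genes rest on limma's shared variance. The study calls the replicates biological, but the labels do not say that they came from separate animals, and p-values measure the spread between these samples.

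Members, role groups, pathway lists and markers were chosen with earlier results of these data known. All 45 members are named. Replicate values are given for the 3 largest changes in hair cells that met the criteria in each role group, the 8 largest in non-hair cells, and Nop58, Fbl, Ncl and Npm1. The 3 largest in hair cells are named for each pathway list, with every MYC network gene. Imp3 and Gltscr2, the 2 pathway genes outside the MYC network that were down, were named after their values were seen. Markers were 9 of 10 listed hair cell genes and lists for supporting cells, mesenchyme, glia, endothelium, macrophages, neurons, melanocytes, erythroid cells and dividing cells. Not shown in the report are the sums for control and treated hair cells of mesenchyme (242 to 514 and 166 to 209), glia (171 to 221 and 79.2 to 143), endothelium (14.0 to 25.8 and 7.46 to 12.7), neurons (1148 to 1301 and 1116 to 1248), melanocytes (12.7 to 15.8 and 11.0 to 12.3) and erythroid cells (0.22 to 0.39 and 0.25 to 0.91). Replicate numbers stand in the file headers and not in the labels. The deviations of same-numbered replicates from their group means correlated at 0.22, 0.32 and 0.20 between the 2 control populations, so those groups were taken as paired by number. In the gentamicin comparisons the correlation was not above 0.1 in every pair.

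Gene positions and exons came from GENCODE M21 (GRCm38), and promoter windows from RefSeq (GRCm38.p6), with the first window listed for a gene. Python 3.11.15, pandas 2.3.3 and matplotlib 3.10.9 were used. The fit was tested on simulated data. Alternatives were an offset of 0.1, TMM or total read scaling, no read minimum or one of 1000, a block for the replicate number, fits of 2 groups alone, leaving out replicates, other thresholds and subtraction of RNA of other cells. Leaving out the member that shares over 10% of its exon bases, comparing the treated populations, and a p under 0.05 without a fold were added after the data were seen.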

Additional observations from a re-analysis of the deposited data

Results flagged for a closer look

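The response to gentamicin differed between hair cells and non-hair cells in 13 members by limma's interaction test (adjusted p under 0.05), and in each it was larger in hair cells. On the log2 scale the response in hair cells exceeded that in non-hair cells by 1.08 for Gnl3, 0.86 for Brix1, 0.85 for Wdr43, 0.69 for Nmd3, 0.65 for Nop58, 0.61 for Nob1, 0.56 for Nop56, 0.52 for Nop14, 0.48 for Rrs1, 0.48 for Wdr75, 0.48 for Utp3, 0.47 for Ddx10 and 0.43 for Tsr1. The adjusted p ran from 0.00112 (Wdr43) to 0.0343 (Rrs1). In all 13 genes every treated hair cell replicate lay above every control, as in 21.7% of all genes tested. The 13 were picked for a larger rise in these same replicates, so this separation adds no support. The number of members that passed was 9 to 13 with 1 replicate left out.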

How the results depend on the processing

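The number of members up in hair cells was 28 to 33 with 1 replicate left out and 15 at a fold change above 1.5, and 28 of the 33 met the criteria under every setting that kept these criteria. In non-hair cells it was 13 to 24 with 1 replicate left out, 12 when those 2 groups were fitted alone, 5 at an adjusted p under 0.05 and 4 at a fold change above 1.5, and 11 of the 22 met them under every such setting. Between the control populations 11 members differed by more than 1.5-fold. The share of all genes above 1.5-fold was not counted in any comparison, so these counts have no background. At the fold of 1.2, 28.1% of all genes were higher and 37.7% lower in control hair cells. The median log2 fold change in hair cells was 0.52 with scaling by total reads and 0.41 to 0.47 with 1 replicate left out. Npm1 changed sign in hair cells, to 0.048 with scaling by total reads, and ran from -0.11 to 0.010 with 1 replicate left out. In non-hair cells it became 0.0040 with scaling by total reads, and ran from -0.13 to 0.12 with 1 replicate left out. The cause of these changes was not tested. With the replicate number as a block 34 members were up in hair cells, 21 in non-hair cells, 14 had a different response and 22 differed between the controls. Same-numbered replicates correlated at 0.04 to 0.05 between the hair cell groups and at -0.23 to 0.68 between the non-hair cell groups. With 3 replicates a group, changes near a fold of 1.2 were not reliably called.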
